A study of Homo sapiens with 3 samples.

Results

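Summits of HA-PSF-TFE3 binding were examined at 7 autophagy genes, ULK1, BECN1, UVRAG, WIPI1, MAP1LC3B, GABARAPL1 and SQSTM1. A summit is the base of highest enrichment within a peak of chromatin immunoprecipitation followed by sequencing (ChIP-seq). The members were all summits inside a fixed window around each gene, given on hg19 as the gene with about 10 kb on either side. They were chosen by position alone and not by score. The 7 windows covered 604 kb in all, from 31 kb for GABARAPL1 to 349 kb for UVRAG. They held 23 of the 44983 summits of replicate 8 and 13 of the 28084 summits of replicate 9, a mean of 18.0 ± 7.07 summits per library (SD, n = 2).

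The samples were doxycycline-inducible HK-2 cells, an immortalised human cell line from the proximal tubule of the kidney, which expressed HA-PSF-TFE3 after 24 h with doxycycline at 0.2 µg/ml. PSF is another name of SFPQ, and the fusion joins it to the transcription factor TFE3. One group of 2 ChIP libraries, labelled replicates 8 and 9 and made from independent clones of the line, was compared with 1 library of input DNA by the authors' peak caller, and all 3 libraries carried the construct and received doxycycline. The fusion was overexpressed from an inducible construct, no library without doxycycline was analysed here, and with 1 group no test between conditions was possible. The series title and sample labels name this fusion, although the design text names PRCC-TFE3. The score of a summit is the authors' −log10 q-value, which depends on depth and is not normalised between libraries, so each score is also given as a percentile, the percentage of that library's own list with a lower score. Sequencing depth, which the study gives, was not used here, and a missing summit means only that no summit passed the authors' threshold.

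Autophagy encloses cytoplasmic material in a double membrane that grows, closes and then joins the lysosome. ULK1 is the kinase that starts the process. BECN1 and UVRAG are subunits of the lipid kinase complex that makes phosphatidylinositol 3-phosphate, WIPI1 binds that lipid on the growing membrane, MAP1LC3B and GABARAPL1 are ubiquitin-like proteins that are joined to the membrane, and SQSTM1, also called p62, is a receptor that links ubiquitinated cargo to them. TFE3 belongs to the MiT/TFE family, whose members bind E-box sequences in promoters of many lysosomal and autophagy genes.

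Promoters of these genes are given first, as sequence before the start site in RefSeq on GRCh38.p14. Of the 7 genes, 6 were matched by symbol in the promoter table, with 8 start sites in all, and UVRAG was not. SQSTM1 has 3 of these starts, and the last lies 14.5 kb from the first. Windows of 250 bases before to 50 after each start were searched on both strands for the E-box CACGTG, its longer form TCACGTG, which contains the first, the M-box core CATGTG, and the AP-1 letters TGAGTCA. Among 35116 promoters of the table these letters were found in 7.26%, 3.71%, 11.1% and 4.95%, respectively. The 8 windows held none of them except 1 CATGTG at BECN1, 72 bases before the start. The promoter of UVRAG-DT, a transcript that RefSeq lists beside the 5′ end of UVRAG, held a TCACGTG starting 54 bases before its own start. UVRAG-DT is not a member and was searched because UVRAG was not matched. Promoters of the other genes' neighbours were not searched. The sequences below are the 250 bases before each start, and capitals mark these motifs. UVRAG-DT and BECN1 are shown because they hold a motif, GABARAPL1 and MAP1LC3B because summits of both libraries lay close to the gene start, and SQSTM1 at its last start because its shared summits lay inside the gene.
UVRAG-DT, chr11:75814798-75815047, minus strand: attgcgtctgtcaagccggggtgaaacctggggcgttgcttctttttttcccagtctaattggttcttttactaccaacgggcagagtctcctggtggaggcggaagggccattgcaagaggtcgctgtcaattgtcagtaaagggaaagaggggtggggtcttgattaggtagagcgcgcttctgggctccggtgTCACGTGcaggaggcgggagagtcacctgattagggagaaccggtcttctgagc
GABARAPL1, chr12:10212627-10212876, plus strand: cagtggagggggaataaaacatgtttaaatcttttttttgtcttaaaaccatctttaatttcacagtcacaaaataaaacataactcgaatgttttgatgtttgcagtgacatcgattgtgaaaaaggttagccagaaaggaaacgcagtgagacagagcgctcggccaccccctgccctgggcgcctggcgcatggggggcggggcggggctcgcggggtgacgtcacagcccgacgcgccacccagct
MAP1LC3B, chr16:87392086-87392335, plus strand: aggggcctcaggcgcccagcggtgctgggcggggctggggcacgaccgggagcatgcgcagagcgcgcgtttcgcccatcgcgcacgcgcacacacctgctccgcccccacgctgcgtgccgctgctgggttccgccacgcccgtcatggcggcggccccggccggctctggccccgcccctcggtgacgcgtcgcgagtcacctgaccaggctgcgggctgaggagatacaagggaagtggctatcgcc
SQSTM1 last start, chr5:179820655-179820904, plus strand: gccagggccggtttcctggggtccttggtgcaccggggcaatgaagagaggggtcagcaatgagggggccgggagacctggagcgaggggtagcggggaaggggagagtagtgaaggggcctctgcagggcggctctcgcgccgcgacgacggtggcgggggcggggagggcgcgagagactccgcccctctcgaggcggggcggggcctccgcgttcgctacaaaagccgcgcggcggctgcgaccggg
BECN1, chr17:42823880-42824129, minus strand: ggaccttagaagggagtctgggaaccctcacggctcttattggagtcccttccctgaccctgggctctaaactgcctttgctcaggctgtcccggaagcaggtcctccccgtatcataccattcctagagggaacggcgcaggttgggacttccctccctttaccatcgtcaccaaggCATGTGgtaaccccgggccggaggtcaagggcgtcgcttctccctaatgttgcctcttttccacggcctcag
The summit lists are on another build, hg19, so whether a summit covered any of these bases was not determined, and a match of letters is a description only.

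Replicate 8 had summits in all 7 windows and replicate 9 in 5 of them, with none at WIPI1 or BECN1. For comparison, tiles of each window's length were cut along all chromosomes, including sequence without genes. A replicate 8 summit was found in 24.6% of them at the GABARAPL1 length and up to 73.1% at the UVRAG length. For replicate 9 these shares were 18.3% and 67.8%. Summits of the libraries were called shared when they lay within 200 bp of each other. By this rule 10 of the 23 replicate 8 summits (43.5%, 95% Wilson interval 25.6 to 63.2%) were shared, beside 47.9% of the whole replicate 8 list. In replicate 9, 10 of 13 (76.9%, 95% Wilson interval 49.7 to 91.8%) were shared, beside 76.6% of that list. The shares at these genes were thus close to those of all summits, and the intervals cover counting error only. The shared summits formed 10 pairs in 4 windows, 4 at UVRAG, 3 at MAP1LC3B, 2 at SQSTM1 and 1 at GABARAPL1. ULK1, BECN1 and WIPI1 had no pair, as was usual for windows of their length, since 22.2%, 16.9% and 24.7% of tiles as long, cut one after another along all chromosomes, held a pair.

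**Figure D1:**
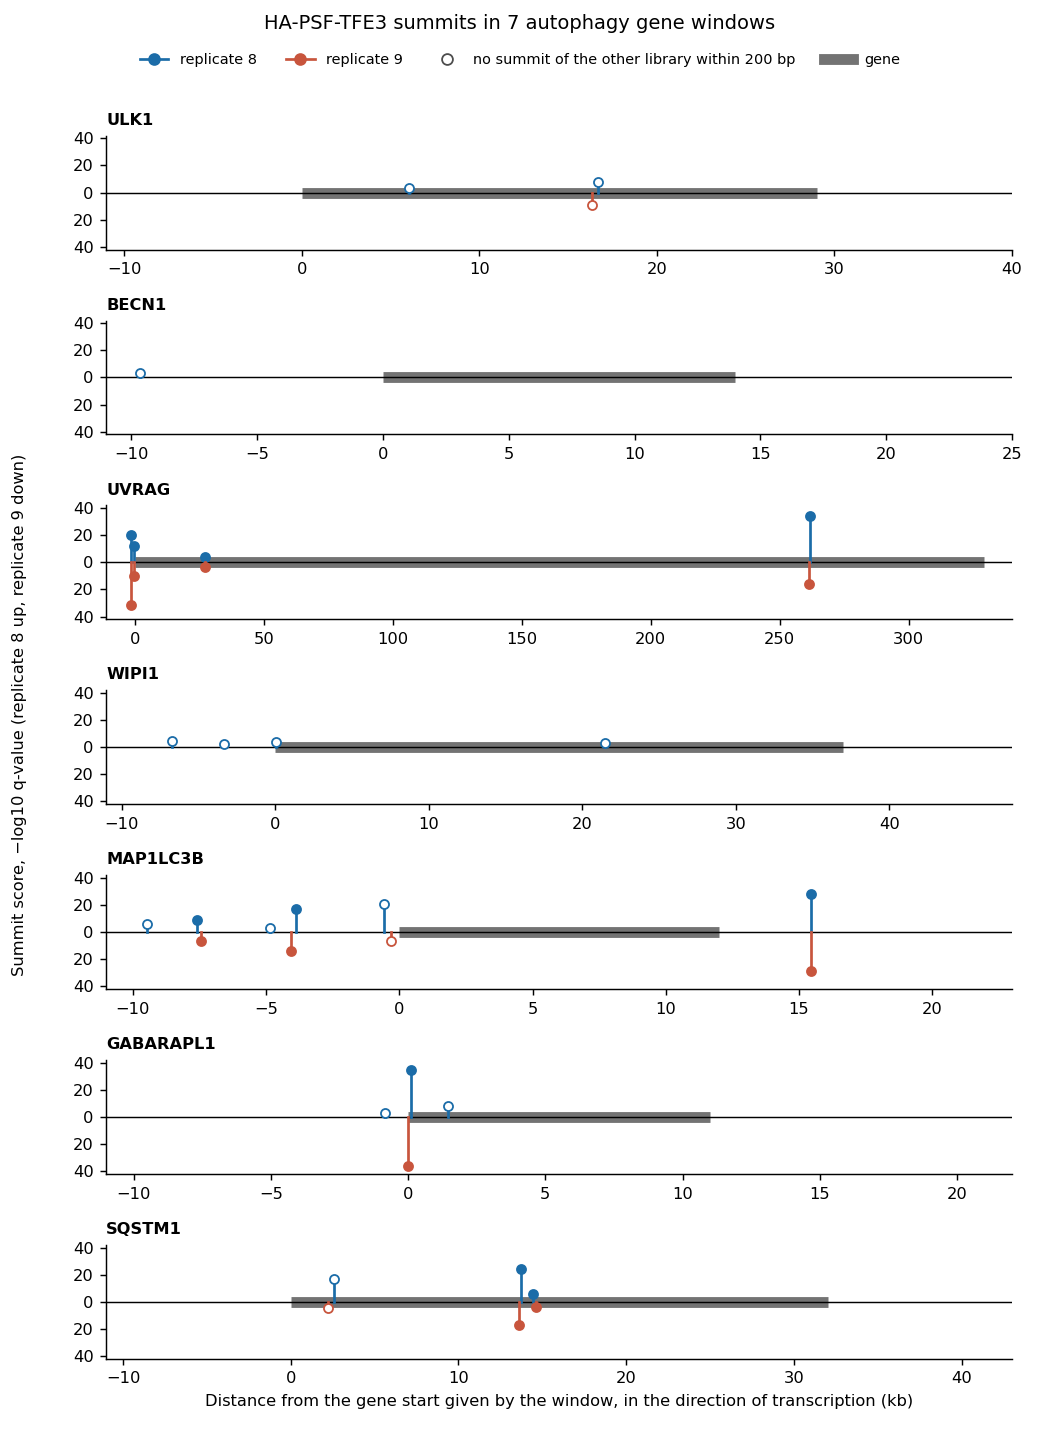
Summits in the 7 windows by distance from the gene start in kb (x axis) and score as −log10 q-value (y axis), with replicate 8 drawn upwards and replicate 9 downwards. Filled points have a summit of the other library within 200 bp, open points have none, and the grey bar is the gene, so that the 10 shared pairs are seen at UVRAG, MAP1LC3B, GABARAPL1 and SQSTM1.

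Scores at the autophagy genes had medians near those of the lists and did not reach the upper ends of the lists, which were 107 in replicate 8 and 145 in replicate 9. In replicate 8 they ran from 2.67 to 34.4 with a median of 7.78, beside a list median of 8.20. In replicate 9 they ran from 3.26 to 36.0 with a median of 9.97, beside 10.5. Of the 23 replicate 8 summits, 9 scored 10 or more (39.1%, beside 41.7% of the list), as did 6 of the 13 in replicate 9 (46.2%, beside 51.6%). Scores of 30 or more were found for 2 summits in each library (beside 7.16% of all replicate 8 summits and 16% of all those in replicate 9). As a group these summits were therefore not stronger than the lists they came from. Within the group, the shared summits had a median score of 18.8 in replicate 8 and the 13 others 4.21. In replicate 9 the medians were 14.6 for shared summits and 6.65 for the other 3. The same medians were not computed over the whole lists, so this contrast is not read as particular to these genes.

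**Figure D2:**
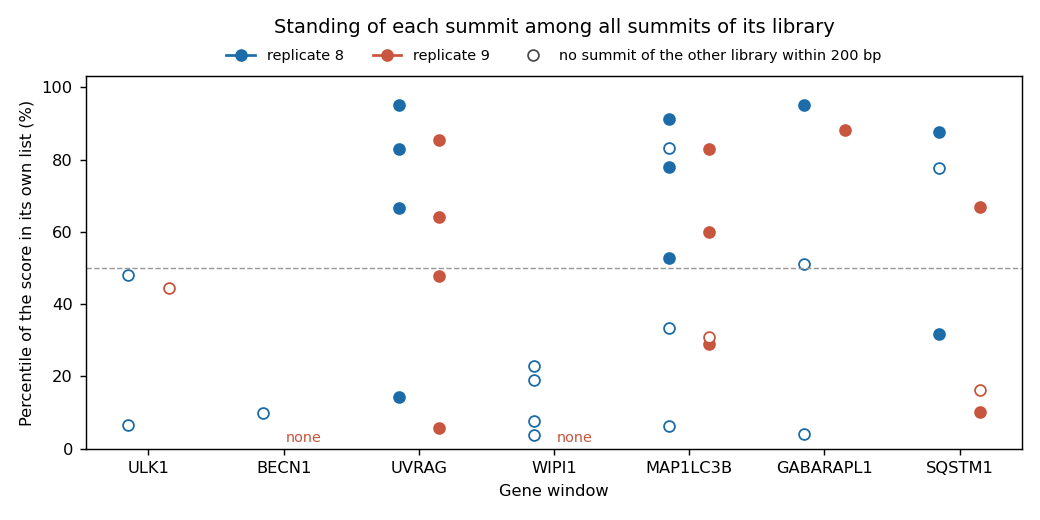
Percentile of each summit's score in the list of its own library (y axis, %) by gene window (x axis). Filled points are shared within 200 bp, and the dashed line is the middle of the list. Points at ULK1, BECN1 and WIPI1 all lie below that line.

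Summits were denser in the windows than over the chromosomes as a whole. The windows held 3.81 summits per 100 kb in replicate 8 and 2.15 in replicate 9, which was 2.59 and 2.34 times the density over all chromosomes, 1.47 and 0.919 per 100 kb. UVRAG made up 349 of the 604 kb but held only 4 summits per library, fewer than the mean of 5.13 in replicate 8 and more than the mean of 3.20 in replicate 9 for consecutive tiles of the same length. Without it the ratio averaged 4.45 over both libraries. Without the MAP1LC3B window, which held the most summits, it averaged 1.87, and the gene bodies without flanks averaged 1.51. The tiles and chromosomes include sequence without genes, so these ratios do not compare autophagy genes with other genes.

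**Figure D3:**
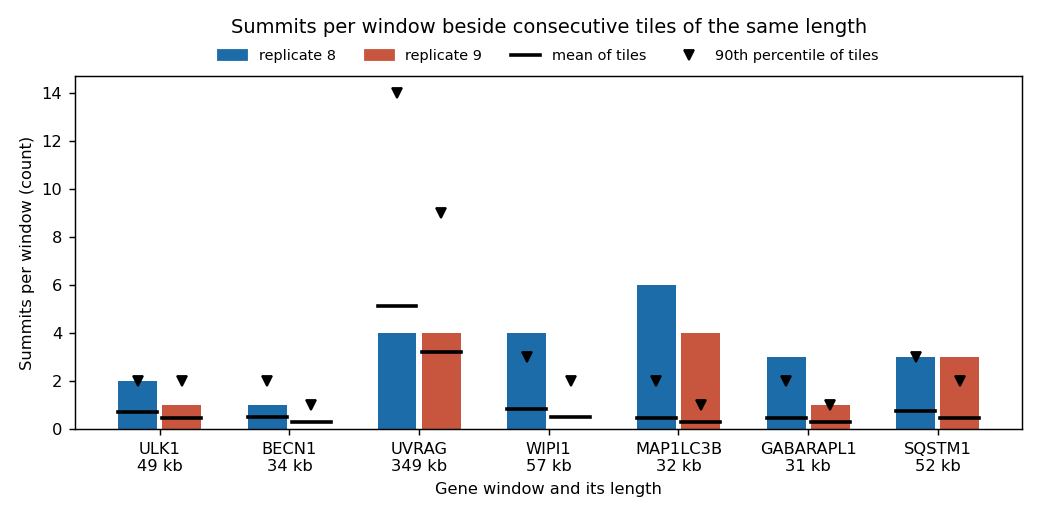
Summits per window (bars, y axis) in replicates 8 and 9, beside the mean (line) and 90th percentile (triangle) of consecutive tiles of the same length over all chromosomes. MAP1LC3B, with 6 and 4 summits, stands above its tiles' 90th percentile in both libraries.

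ULK1 had 1 summit near the middle of each list and a weak one in replicate 8, and BECN1 had a single weak one. ULK1, the initiating kinase, had a replicate 8 summit at chromosome 12 position 132395670 with a score of 7.78 and a replicate 9 summit at 132395364 with a score of 9.19. These lay 16.7 and 16.4 kb inside the gene and 306 bp apart, more than the 200 bp that counted as shared, at percentiles of 48.2 and 44.4 in their lists. A further ULK1 summit, at 132385018 with a score of 3.09 and a percentile of 6.59, was found in replicate 8 alone. Its nearest replicate 9 summit was 10346 bp away. No summit of either library lay in the 10 kb before the ULK1 start. BECN1, the scaffold of the lipid kinase complex, had 1 summit, in replicate 8, at chromosome 17 position 40985636. Its score of 3.29 stood at percentile 9.89, and it lay 9.6 kb before the gene start, on the side where RefSeq lists PSME3, and 365 bp from the end of the window. Neither library had a summit within the BECN1 gene itself. A replicate 8 summit was found in 26.1% of 34 kb tiles, and at least 2 in 17% of 49 kb tiles, the length of the ULK1 window.

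UVRAG, the partner of BECN1 in the complex that acts late in autophagy and on endosomes, had the most shared summits, and every summit in its window was shared. In replicate 8 the scores were 20.4, 12.4, 3.83 and 34.4 at chromosome 11 positions 75524492, 75525747, 75553156 and 75787529. In replicate 9 they were 31.5, 9.97, 3.26 and 15.6 at 75524442, 75525844, 75553116 and 75787438. The distances within the 4 pairs were 50, 97, 40 and 91 bp. The first pair lay 1.5 and 1.6 kb before the gene start, on the side of UVRAG-DT, whose promoter holds the TCACGTG printed above. The second lay 0.25 and 0.16 kb before that start. Its side is not resolved, because the start is good only to about 1 kb. The first ranked higher than the second in both libraries, at percentiles of 82.9 and 85.3 against 66.5 and 47.9. The weak pair lay 27.2 and 27.1 kb inside the gene. The last lay 261.5 and 261.4 kb inside it and was the strongest of the gene in replicate 8, at percentile 95.2, but not in replicate 9, at percentile 64.1. Its scores differed 2.21-fold, the widest ratio among the 10 pairs, whereas over all 21518 pairs of the lists the ratio of replicate 8 to replicate 9 had a median of 1.05 and quartiles of 0.720 and 1.61. The UVRAG window was long, and 63.6% of 349 kb tiles held a shared pair. At least 4 pairs were found in 26.2% of them.

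WIPI1, the phosphatidylinositol 3-phosphate binding protein, had 4 summits in replicate 8 and none in replicate 9. The replicate 8 scores were low, 3.14 at chromosome 17 position 66432510, 4.21 at 66453968, 2.67 at 66457319 and 4.59 at 66460700. The highest stood at percentile 22.8 of its list. The summit at 66453968 lay 0.03 kb from the gene start, which is good only to about 1 kb. The next ones lay 3.3 and 6.7 kb before the start, and the remaining one 21.5 kb inside the gene. RefSeq lists ARSG and PRKAR1A as overlapping WIPI1, so a summit there cannot be assigned to WIPI1 alone. At least 4 replicate 8 summits were found in 6.79% of 57 kb tiles, and 28.0% of such tiles held a replicate 9 summit.

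MAP1LC3B, which encodes LC3B, held the most summits, 6 in replicate 8 and 4 in replicate 9, in a window of 32 kb. As many were found in 0.694% of 32 kb tiles in replicate 8 and in 1.04% in replicate 9. The window held 3 shared pairs. At least that many were found in 1.33% of tiles, and 16.1% of tiles held any pair. The strongest pair, at chromosome 16 positions 87441470 and 87441453, was 17 bp apart, the closest of the 10, and scored 28.1 in replicate 8 and 28.6 in replicate 9. It lay 15.5 kb from the gene start, past the gene's 3′ end, on the side where RefSeq lists ZCCHC14. A pair at 87422123 and 87421941 scored 17.2 and 13.6, and a pair at 87418417 and 87418574 scored 8.73 and 6.41. These lay 3.9 and 4.1 kb, and 7.6 and 7.4 kb, before the gene start. On that side RefSeq lists FBXO31, the long non-coding RNA LOC124903747 and the tRNA gene TRM-CAT6-1. The summits nearest to the start differed more between the libraries. In replicate 8 the summit at 87425441, 0.56 kb before the start, scored 20.5 (percentile 83.2), and in replicate 9 the summit at 87425692, 0.31 kb before it, scored 6.65 (percentile 30.9). They were 251 bp apart and did not count as shared. The score of 20.5 was the highest of any unshared summit in the windows. The remaining replicate 8 summits, at 87416533 and 87421148, scored 5.60 and 3.06. No summit lay within the MAP1LC3B gene as the window gives it, with a start good only to about 1 kb.

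GABARAPL1, of the same ubiquitin-like family, had the best-ranked shared pair of the 7 windows, and it lay near the gene start. At chromosome 12 positions 10365106 and 10364976, 130 bp apart, the scores were 34.3 in replicate 8 and 36.0 in replicate 9. These stood at percentiles of 95 and 88.1. By the rounded window the positions were 0.11 kb after and 0.02 kb before the gene start, which is good only to about 1 kb. Among all pairs of the lists, ordered by the poorer of their ranks, 8.98% stood ahead of this one. A summit as high was found in 2.14% of 31 kb tiles in replicate 8 and in 2.99% in replicate 9, while 15.8% of tiles held a pair. Replicate 8 alone had further summits at 10364159 and 10366439, with scores of 2.68 and 8.43. The nearest summits outside the window were 152 kb away or more in both libraries. RefSeq lists the antisense transcript GABARAPL1-AS1 as overlapping the gene.

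SQSTM1, the cargo receptor, had 3 summits in each library, all inside the gene as counted from its outer end. The strongest pair lay at chromosome 5 positions 179246736 and 179246589, 147 bp apart, with scores of 24.1 in replicate 8 and 16.9 in replicate 9, at percentiles of 87.6 and 67.0. It was followed by a weaker pair at 179247435 and 179247607, 172 bp apart, with scores of 5.4 and 4.05. Counted from the outer end of the gene as the window gives it, the pairs lay at 13.7 and 13.6 kb, and at 14.4 and 14.6 kb. On GRCh38 the last RefSeq start lies 14.5 kb from the first, but the builds were not aligned and the distances are set side by side only. Nearer to the outer end, at 2.6 and 2.2 kb, a replicate 8 summit at 179235586 scored 17 and a replicate 9 summit at 179235247 scored 4.87. They were 339 bp apart and were not shared. RefSeq lists MGAT4B and MRNIP as overlapping SQSTM1. At least 3 summits were found in 10.2% of 52 kb tiles in replicate 8 and in 5.19% in replicate 9, and 23.1% of such tiles held a pair.

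The distances within the 10 pairs ran from 17 to 182 bp with a median of 113.5 bp, compared with a median of 52 bp over all 21518 pairs. Of the 10 pairs, 3, those at GABARAPL1 and the first and second at UVRAG, lay within 2 kb of the gene start in both libraries. The share of all 21518 pairs lying so near a gene start was not computed. Windows drawn around genes favour such pairs by construction, so the count is not read as a trait of these genes. This count used only the outer gene start given by each window. It leaves out the SQSTM1 pairs, although RefSeq lists a further SQSTM1 start 14.5 kb from the first on GRCh38. Distances to gene starts come from windows rounded to 1 kb with flanks of about 10 kb, so they are good to about 1 kb. Across the 10 pairs the scores of both libraries had a Spearman's rho of 0.842, compared with 0.728 over all pairs. This is a description across sites, which share libraries and input, and it was 0.257 when only the 6 pairs scoring at least 10 in both libraries were kept. The value over all pairs was not computed at that cutoff, which also narrows the range of scores. Replicate 8 had the higher score in 7 pairs and replicate 9 in 3, while replicate 9 was higher in 46.5% of all pairs. Percentiles were also taken among the paired summits alone. The difference of replicate 9 minus replicate 8 then had quartiles of -12.8 and 13.2 over all pairs, and 3 of the 10 lay outside them. These were the UVRAG pair at 261.5 kb with -31.9 points, the first UVRAG pair with 15 points and the strongest SQSTM1 pair with -14.4 points.

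**Figure D4:**
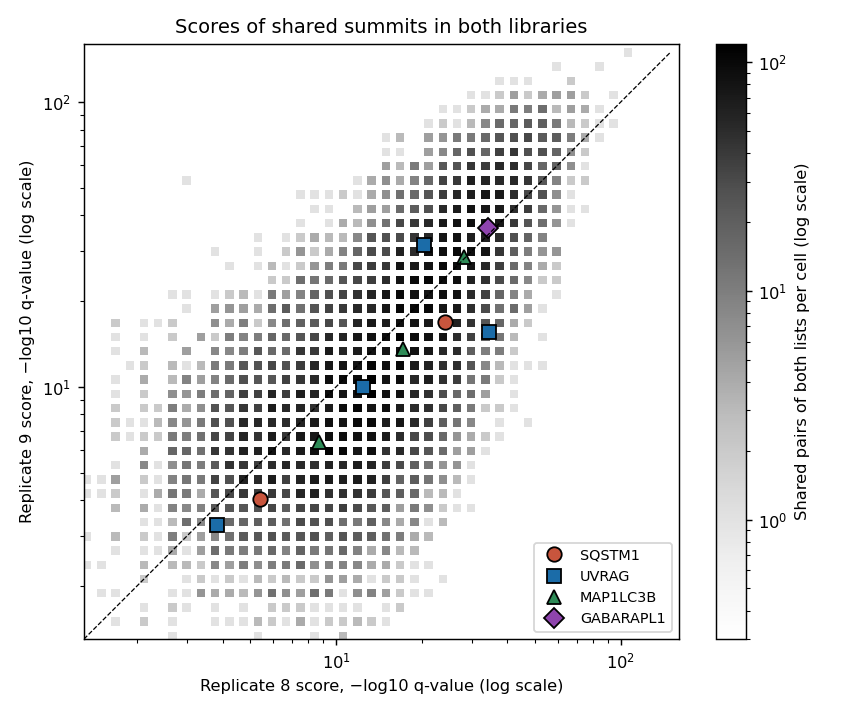
Scores of shared summits in replicate 8 (x axis) and replicate 9 (y axis), both −log10 q-values on log axes, with equal scores on the dashed line. Grey cells count all 21518 pairs and coloured symbols are the 10 pairs at SQSTM1, UVRAG, MAP1LC3B and GABARAPL1, of which 7 lie below the line, while 46.5% of all pairs lie above it.

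The windows' edges left out some strong summits, which were looked up after the values inside were seen. Within 15 kb outside an edge, a reach also chosen then and not set against tiles, 5 shared pairs were found at 4 genes. A pair at 87448039 and 87448089, scoring 38.6 and 45.9, lay 38 and 88 bp beyond the MAP1LC3B window and was stronger in both libraries than any pair inside the 7 windows. The WIPI1 window was followed by a pair at 66470758 and 66470634, scoring 22.6 and 47.1, which lay 16.8 and 16.6 kb before the WIPI1 start. ULK1 had 2 pairs, 24.2 and 22.2 kb before its start. The nearer, at 132356835 and 132356803, scored 14.9 and 34.4, and the farther, at 132354824 and 132354760, scored 17.4 and 35.0. BECN1 had a pair at 40949615 and 40949570, scoring 14.9 and 4.65, which lay 26.4 kb from its start, past the 3′ end. Which genes lie nearest to these pairs on hg19 was not determined here. UVRAG, GABARAPL1 and SQSTM1 had no shared pair in that range.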

How the data were processed

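ChIP-seq of HA-PSF-TFE3 was measured in 2 libraries, grouped by their labels, with 1 input library as control. The authors aligned single-end reads, then ran MACS2 on each ChIP library separately with the input as control. The deposited values are 1 summit per peak with a −log10 q-value. The lowest, 1.37 and 1.33, lie just above 1.30, the value for the stated q-value cutoff of 0.05, although a p-value cutoff is also stated. The MACS2 version is not given in the sources used here.

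Sources name both hg19 and hg38. Because 364 summits of replicate 8 and 262 of replicate 9 had positions past the ends of their hg38 chromosomes, hg19 was taken, without a test against hg19 sequence. Annotation at hand was on GRCh38, so it gave only gene names, strand, neighbours and promoter sequences, and coordinates were not converted. Other autophagy genes were not analysed here for that reason.

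Members were summits whose start lay in the stated windows. Distances were compared between lists, and mutually nearest summits within 200 bp were paired. Named pairs were the best-ranked in each window and the one nearest to the gene start. Tiles ran along each chromosome up to its last summit. The functions were tested on simulated lists. The members and lists were chosen with earlier results of these data known. Alternatives were another sharing distance, minimum scores, other flanks, merging, equal list lengths, each library alone and Pearson's r. Distances and shares were computed in Python 3.11.15 with scipy 1.17.1, numpy 2.4.6 and pandas 2.3.3, and figures drawn with matplotlib 3.10.9.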

Additional observations from a re-analysis of the deposited data

How the results depend on the processing

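Alternatives for single windows left out were chosen after the data were seen. Of 53 values under alternatives, 34 stayed within the spread between libraries, the interval, 1.5 times the count or, for rho, a fixed small difference. For the density ratio and the median score, each library alone stays within that spread by construction. Those values are counted among the 34 but are no check. The other 19 moved, with no cause tested beyond what each setting fixes by construction. The mean count per library of 18.0 became 7.5 with a minimum score of 10 and 8.5 without flanks, and 13 to 23 for each library alone. Sharing within 50 bp left 13.0% of replicate 8 and 23.1% of replicate 9 summits shared, in 2 windows, with a rho of 0.5 over 3 pairs. Within 500 bp all replicate 9 summits were shared (100.0%), adding the near pairs at ULK1, MAP1LC3B and SQSTM1. A minimum score of 10 gave 66.7% and 100.0% shared, and equal numbers of summits gave 66.7% for replicate 8. The shares of the whole lists were not computed at these other settings. The changes in sharing are therefore not read as a trait of the autophagy genes. The density ratio of 2.47 became 2.21 and 2.26 with minimum scores of 5 and 10, 1.51 without flanks, 2.25 with equal numbers, 4.45 without UVRAG and 1.87 without MAP1LC3B, and it was 2.34 to 2.59 for each library alone. The median score of 8.87 became 14.4 with equal numbers, and 7.78 to 9.97 for each library alone. The rho of 0.842 became 0.69 and 0.257 with minimum scores of 5 and 10, and no values over all pairs were computed at those cutoffs. No paired analysis was possible because there is 1 group of ChIP libraries. Depth was not used, so a summit in 1 list alone is not read as a difference in binding.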
